A study of Mus musculus with 6 samples.

Results

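Thermogenic fat burns fuel for heat. Brown and beige adipocytes do so by uncoupling mitochondrial respiration from ATP synthesis, mainly through the carrier UCP1, and their genes are switched on by noradrenaline, cAMP and thyroid hormone under regulators such as PRDM16, EBF2 and PGC-1α. Beige adipocytes are the thermogenic cells that can appear within white fat, where these genes are otherwise low. The genes described here are 10 brown and beige fat genes out of 22040 in the expression table: the uncoupling protein genes Ucp1 and Ucp2, the regulators Ppargc1a, Prdm16 and Ebf2, the deiodinase gene Dio2, the respiratory chain genes Cox7a1 and Cox8b, and the channel genes Kcnk3 and Otop1. They were listed by name as brown and beige fat genes, with earlier results of these data known, and all 10 symbols matched an Ensembl gene in the table.

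RNA from mouse white adipose tissue was sequenced in 3 libraries of the Rb1 group and 3 of the CTR group. Rb1 mice received ginsenoside Rb1, a saponin of ginseng, by intraperitoneal injection at 14 mg/kg per day, and CTR mice received saline by the same route. All mice were kept on a 12-h light/dark cycle. The series title ties the study to obesity and myostatin, and the comparison asks which genes of the tissue differ after Rb1. The labels used here state neither the strain, sex, age or diet of the mice nor the fat depot or how long treatment lasted. They also leave unstated whether each library is a mouse of its own, so a p-value here speaks of spread between libraries, which may be technical.

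The libraries held 15440339 to 24501446 counts. The labelled tissue showed its defining transcripts in every library: none of 10 mature adipocyte markers was at 0, and their summed level was 4889 to 6139 FPKM in Rb1 and 5244 to 5602 FPKM in CTR (FPKM is the read count per kilobase of gene scaled to library depth). Adipoq, the adiponectin gene, stood at 1275 to 1511 FPKM in Rb1 and 1513 to 1672 FPKM in CTR. CTR replicate 2 stood apart through skeletal muscle transcripts. The 22 muscle markers took 0.0230%, 0.00669% and 0.0120% of counts in Rb1 replicates 1, 2 and 3, against 0.0472%, 3.61% and 0.0528% in CTR replicates 1, 2 and 3. The exact 95% interval for CTR replicate 2 ran from 3.605% to 3.62%, and covers counting error only. Mb, the myoglobin gene, was at 0 counts in Rb1 replicate 3 and Myh7, a slow myosin gene, at 0 in 5 libraries. Of the 18 muscle markers tested, all had negative log2 fold changes also without CTR replicate 2, with 15 at an unadjusted p under 0.05 and none passing in edgeR, while DESeq2 called 5 lower. Several of the 10 genes are also expressed by muscle, so the test of each of the 10 is given with and without CTR replicate 2.

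None of the 10 genes passed an adjusted p of 0.05 between Rb1 and CTR in edgeR's quasi-likelihood test, with or without CTR replicate 2. The background was 1 of 14093 tested genes, or 0.00710%, with all libraries and 0.00703% without CTR replicate 2. At an unadjusted p under 0.05 there were 2 of the 10, Prdm16 higher and Ucp2 lower in Rb1, where 11.6% of all tested genes were below that limit. By direction, 4.01% of all tested genes were higher and 7.54% lower at that limit. The same 2 genes were the ones whose values did not overlap between groups, against 17.5% of all tested genes, of which 7.73% were higher and 9.74% lower, so neither share is far from the background. Without CTR replicate 2 they were again the 2 of 10 below the unadjusted limit and without overlap, against 8.32% and 25.4% of all tested genes. DESeq2 called the same 2 genes (adjusted p = 0.0365 for Prdm16 and 0.00994 for Ucp2) among 2.56% of the genes it tested (0.548% higher, 2.01% lower), and called none of the 10 without CTR replicate 2, where it called 1.16% of all genes. The median log2 fold change of the 10 genes was -0.44 with all libraries and 0.29 without CTR replicate 2, beside medians of 0.01 for all tested genes in both fits, so the direction of the list's median depended on that library.

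**Figure D1:**
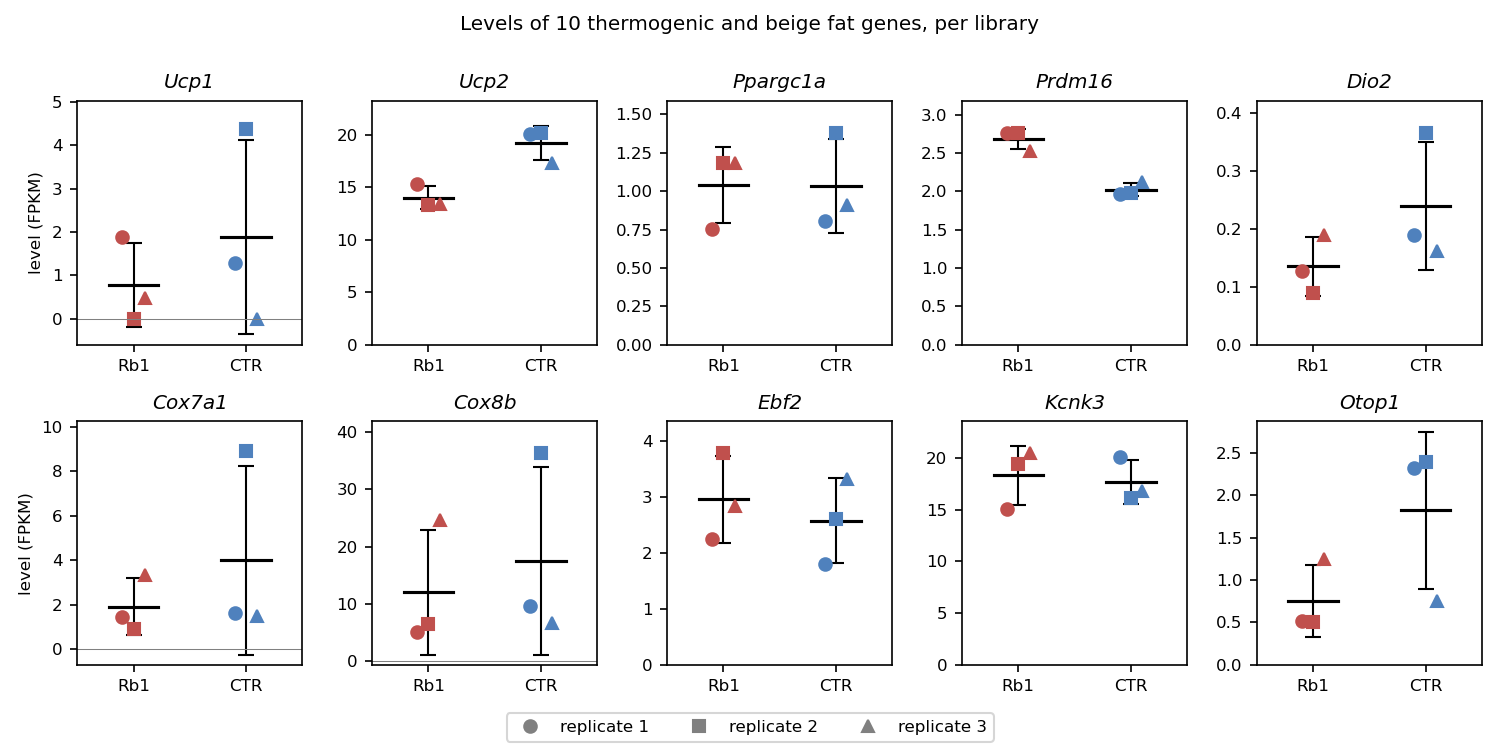
Level in FPKM (vertical axes, each from 0 or just below) of each of the 10 genes in the Rb1 and CTR libraries, with marker shape for the replicate, horizontal lines for the group mean and bars for 1 SD (n = 3 each). Only Ucp2 and Prdm16 show groups that do not overlap, and the square of CTR replicate 2 is the highest point for 7 of the 10 genes.

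Levels per length differed widely between the 10 genes. In the Rb1 libraries Kcnk3 had the highest mean FPKM with 18.3 ± 2.85 (SD, n = 3), followed by Ucp2 with 14.0 ± 1.10 FPKM and Cox8b with 12.1 ± 10.9 FPKM. These 3 overlapped as neighbours in the order. Ebf2, all of whose values lay below those of Cox8b, led a group with Prdm16, Cox7a1, Ppargc1a, Ucp1 and Otop1, whose means ran from 2.96 down to 0.756 FPKM with each overlapping the next. Dio2 had the lowest mean, at 0.135 ± 0.0507 FPKM, with values wholly below those of Otop1 but within the range of Ucp1, which had a library at 0. In the CTR libraries Ucp2 led with 19.2 ± 1.61 FPKM over Kcnk3 (17.7 ± 2.11) and Cox8b (17.5 ± 16.4), and Dio2 was again last at 0.239 ± 0.111 FPKM. The median coefficient of variation of the 10 genes was 31.9% in Rb1 and 37.9% in CTR, against 14.6% in Rb1 and 13.3% in CTR over all tested genes. Among the 10 it ran from 5.02% (Prdm16) to 124.5% (Ucp1) in Rb1, and from 4.38% (Prdm16) to 119.3% (Ucp1) in CTR. The comparison was not matched for level, and counting error alone spreads genes with few counts more. Of the 10, 7 were highest in CTR replicate 2, against 16.8% of all tested genes, and 6 were at least 1.5 times the mean of the other controls there, against 6.98% of all tested genes. In Rb1 replicate 3, 4 of the 10 were at least 1.5 times the mean of the other Rb1 libraries, against 2.96% of all tested genes.

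Prdm16 encodes a zinc-finger coregulator that drives and maintains the brown and beige fat programme. It spans bases 154316125 to 154636873 of chromosome 4 (minus strand, GRCm38), and 1.17% of its exon bases are shared with B230104I21Rik on the opposite strand. Its level was 2.76, 2.77 and 2.53 FPKM in Rb1 replicates 1, 2 and 3, against 1.96, 1.98 and 2.13 FPKM in CTR replicates 1, 2 and 3. All 3 Rb1 values lay above all 3 CTR values, and replicates differed little, with a coefficient of variation of 5.02% in Rb1 and 4.38% in CTR. The log2 fold change was 0.45 with an SE of 0.10 (edgeR, unadjusted p = 0.00365, adjusted p = 0.216). It was 0.44 without CTR replicate 2 (adjusted p = 0.467), and leaving out each library in turn kept it between 0.40 and 0.50. Its call in DESeq2 held only when CTR replicate 3 was the library left out (adjusted p = 0.0131), and the adjusted p was 0.0685 to 0.308 without any other library.

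Prdm16 is also expressed by endothelial cells, so their markers are given beside it. The 8 endothelial markers summed to 414, 235 and 280 FPKM in Rb1 replicates 1, 2 and 3, against 284, 236 and 257 FPKM in CTR replicates 1, 2 and 3. These groups overlapped. None of the 8 was at 0 in any library. All 8 had positive log2 fold changes (median 0.27, or 0.24 without CTR replicate 2), with 2 at an unadjusted p under 0.05 and none passing in edgeR or DESeq2. Mature adipocyte sums overlapped too, at 6139, 4889 and 6137 FPKM in Rb1 and 5531, 5244 and 5602 FPKM in CTR. Of these 10 adipocyte markers 8 had positive log2 fold changes (median 0.23, or 0.22 without CTR replicate 2), and 3 were higher at an unadjusted p under 0.05 (Lipe, Pnpla2 and Adrb3). None of them passed in edgeR, 2 were higher without overlap (Lipe and Pnpla2), and DESeq2 called Pnpla2 higher (adjusted p = 0.0494). The part of cell composition in the Prdm16 difference was not tested, and in whole tissue fewer cells of a type and less RNA per cell cannot be told apart. The related gene Mecom, which encodes PRDM3, had a log2 fold change of 0.35 (adjusted p = 0.683), or 0.33 without CTR replicate 2.

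Ppargc1a (chromosome 5, bases 51454250 to 51567726, minus strand) encodes PGC-1α, the coactivator of mitochondrial and thermogenic genes. Its level was 0.752, 1.19 and 1.18 FPKM in Rb1 replicates 1, 2 and 3, against 0.808, 1.38 and 0.913 FPKM in CTR replicates 1, 2 and 3, so that the groups overlapped, with a mean of 1.04 FPKM in Rb1 and 1.03 FPKM in CTR. The log2 fold change was 0.06 with an SE of 0.30 (edgeR adjusted p = 0.968), and 0.33 without CTR replicate 2 (adjusted p = 0.826). Ebf2 (chromosome 14, bases 67233292 to 67430918, plus strand) encodes a transcription factor that marks committed brown and beige precursors and opens the way for PPARγ at brown fat genes. Its level was 2.25, 3.79 and 2.85 FPKM in Rb1 replicates 1, 2 and 3, against 1.81, 2.60 and 3.32 FPKM in CTR replicates 1, 2 and 3, again overlapping (log2 fold change 0.24, SE 0.30, edgeR adjusted p = 0.821, and 0.25 with an adjusted p of 0.918 without CTR replicate 2). The highest and lowest Ebf2 levels went with high and low adipose progenitor markers: the 10 progenitor markers summed to 333, 603 and 481 FPKM in Rb1 replicates 1, 2 and 3 and to 389, 427 and 528 FPKM in CTR replicates 1, 2 and 3. In both groups the library order by Ebf2 was the library order by this sum, a description over 3 libraries each, and the part of progenitor content in Ebf2 was not tested. This order was noticed after the values were seen. Of the Ebf2 gene's exon bases, 6.12% are shared with Gm10860 on the opposite strand.

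**Figure D2:**
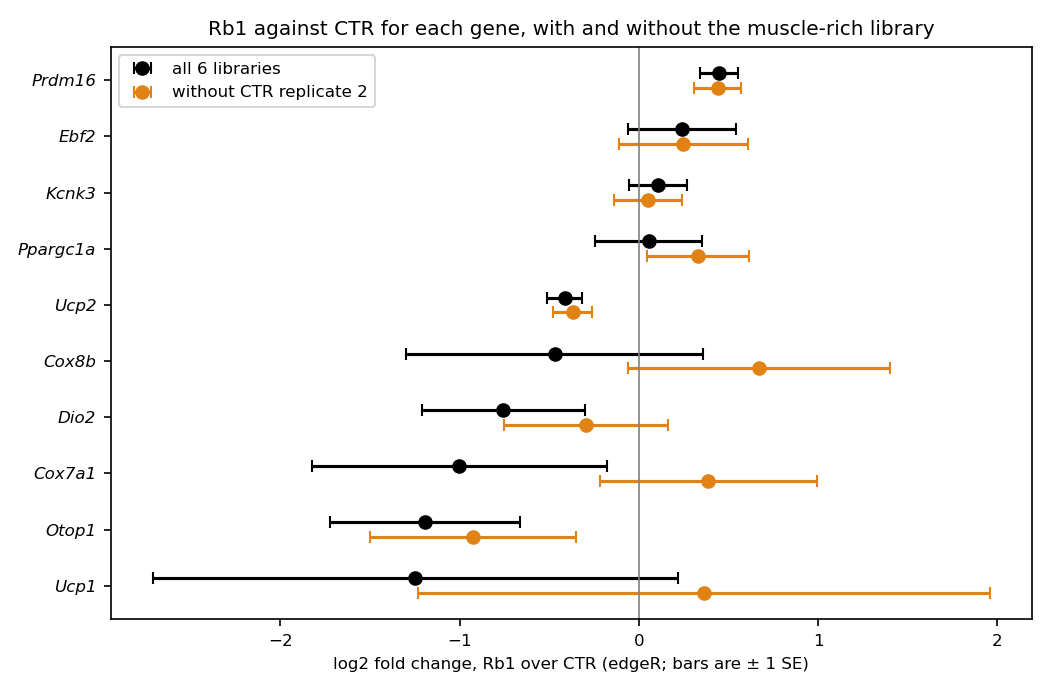
Log2 fold change of Rb1 over CTR (horizontal axis) for each gene with all 6 libraries (black) and without CTR replicate 2 (orange), with bars of 1 SE from edgeR. Prdm16 and Ucp2 sit at nearly the same place in both fits, while Cox7a1, Cox8b and Ucp1 are below 0 with all libraries and above 0 without CTR replicate 2.

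Ucp2 encodes an uncoupling protein homologue of the inner mitochondrial membrane that many cell types express, macrophages among them. The gene spans bases 100493337 to 100502020 of chromosome 7 (plus strand), and 4.36% of its exon bases are shared with Dnajb13 on the opposite strand. Its level was 15.3, 13.3 and 13.4 FPKM in Rb1 replicates 1, 2 and 3, against 20.1, 20.2 and 17.4 FPKM in CTR replicates 1, 2 and 3. Every Rb1 value lay below every CTR value. For Ucp2 the log2 fold change was -0.41 with an SE of 0.10 (edgeR, unadjusted p = 0.00381, adjusted p = 0.217), and -0.37 without CTR replicate 2 (adjusted p = 0.467). The DESeq2 call was lost without CTR replicate 1 (adjusted p = 0.0667), CTR replicate 2 (0.204) or Rb1 replicate 3 (0.0852) and held without each of the other 3 libraries.

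Summed macrophage markers were lower in the same libraries. The 10 macrophage markers, none of which was at 0 in any library, summed to 615, 859 and 847 FPKM in Rb1 replicates 1, 2 and 3, against 1107, 1271 and 970 FPKM in CTR replicates 1, 2 and 3. All 3 Rb1 sums lay below the CTR sums, and the library order among replicates differed from that of Ucp2, since Rb1 replicate 1 had the lowest macrophage sum and the highest Ucp2 level of its group. All 10 macrophage genes had negative log2 fold changes, with a median of -0.75, or -0.64 without CTR replicate 2. In edgeR none of them passed and 7 had an unadjusted p under 0.05; DESeq2 called 4 lower (Adgre1, Cd68, Itgax and Trem2). The part of macrophage content in the Ucp2 difference was not tested.

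**Figure D3:**
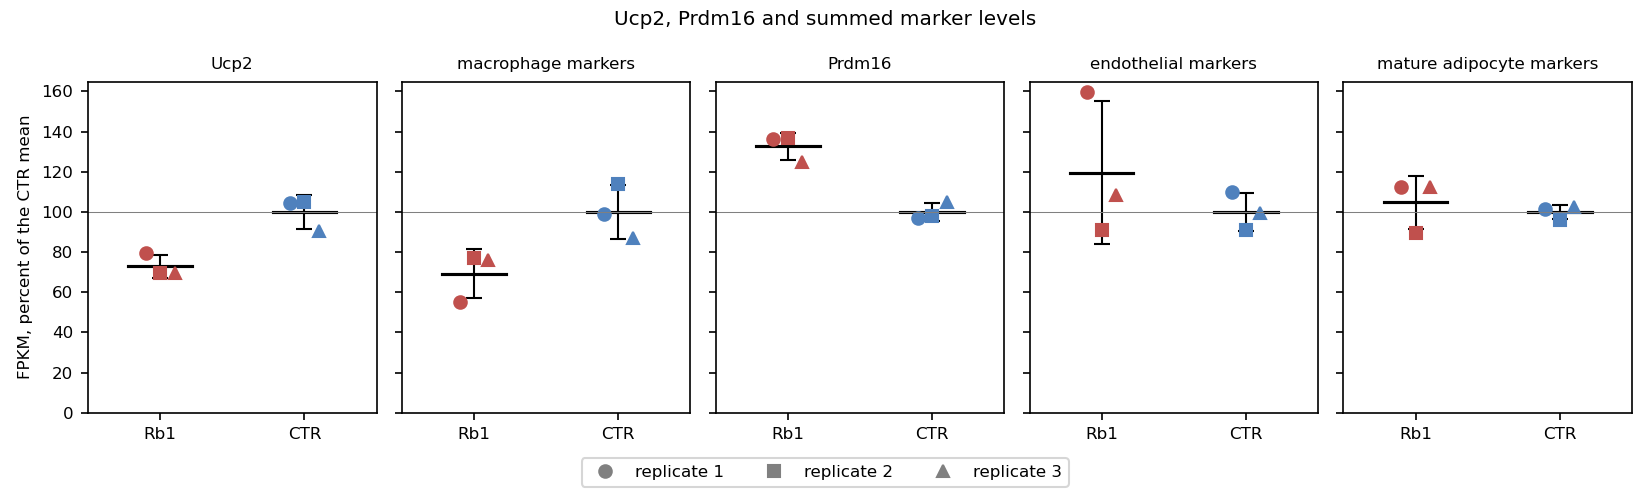
FPKM of Ucp2 and Prdm16 and summed FPKM of macrophage, endothelial and mature adipocyte markers in each library, as percent of the CTR mean (vertical axis), with lines for means and bars for 1 SD (n = 3 each). Ucp2 and the macrophage sum lie below 80% of the CTR mean in all 3 Rb1 libraries, Prdm16 lies at 125% to 137%, and the endothelial and adipocyte sums overlap between groups.

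Ucp1 (chromosome 8, bases 83290352 to 83298452, plus strand), the defining heat-producing carrier of brown and beige adipocytes, was low and uneven within both groups. Its counts were 62, 0 and 19 in Rb1 replicates 1, 2 and 3, against 40, 168 and 0 in CTR replicates 1, 2 and 3. In FPKM this was 1.87, 0 and 0.474 in Rb1, against 1.28, 4.37 and 0 in CTR. Each group thus held a library with no read, where a limit of 3 counts allows up to 0.194 CPM (Rb1 replicate 2) and 0.149 CPM (CTR replicate 3), and the exact 95% intervals end at 0.239 CPM (Rb1 replicate 2) and 0.183 CPM (CTR replicate 3), CPM being the library-scaled count in parts per 1e6. The log2 fold change was -1.25 with an SE of 1.46 (edgeR adjusted p = 0.807) and 0.37 without CTR replicate 2 (adjusted p = 0.976). The highest Ucp1 level was in CTR replicate 2, the library rich in muscle transcripts. It was 6.83 times the mean of the other controls, a mean lowered by the 0 of CTR replicate 3. The part of muscle content in that level was not tested. Ucp3, the muscle and fat homologue that lies next to Ucp2 on chromosome 7, was at 4.84, 6.90 and 7.06 FPKM in Rb1, against 6.55, 10.4 and 6.62 FPKM in CTR, and its log2 fold change was -0.28 (edgeR adjusted p = 0.743), or -0.01 without CTR replicate 2.

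Cox7a1 and Cox8b encode the muscle and brown fat forms of 2 subunits of cytochrome c oxidase, the last enzyme of the respiratory chain, whose general forms are encoded by Cox7a2 and Cox8a. Dio2 encodes the deiodinase that makes active thyroid hormone inside the cell and is a cAMP-induced gene of brown fat. All 3 were highest in CTR replicate 2, their direction or size turned on that library, and their promoters were picked to be shown. That description also covers other genes of the 10. Among them is Ucp1, whose window held none of the motifs searched and is not shown. RefSeq (GRCm38.p6) gave a promoter of 250 bases before and 50 after the start for 8 of the 10 genes. Capitals mark matches to the motifs searched on both strands: the E-box CAGCTG, bound by muscle regulators among others, the cAMP response element TGACGTCA, the TATA box TATAAA, the EBF motif (TCCC and GGGA with 2 free bases between) and the direct repeat of nuclear receptors (AGGTCA, 1 free base, AGGTCA). None of these motifs overlapped another in the windows below, which are Dio2 at chr12:90738989-90739288 (minus strand), Cox7a1 at chr7:30183921-30184220 (plus strand) and Cox8b at chr7:140900397-140900696 (minus strand).
Dio2: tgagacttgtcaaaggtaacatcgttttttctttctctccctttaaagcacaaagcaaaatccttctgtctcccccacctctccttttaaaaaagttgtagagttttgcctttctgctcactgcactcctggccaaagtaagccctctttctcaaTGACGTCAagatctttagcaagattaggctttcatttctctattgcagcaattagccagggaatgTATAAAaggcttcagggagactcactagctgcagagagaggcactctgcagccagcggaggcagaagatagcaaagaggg
Cox7a1: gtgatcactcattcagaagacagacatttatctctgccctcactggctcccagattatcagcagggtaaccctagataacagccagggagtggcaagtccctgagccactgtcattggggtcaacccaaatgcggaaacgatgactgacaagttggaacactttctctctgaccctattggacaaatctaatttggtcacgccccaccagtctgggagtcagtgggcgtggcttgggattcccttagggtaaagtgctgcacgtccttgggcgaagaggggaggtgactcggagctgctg
Cox8b: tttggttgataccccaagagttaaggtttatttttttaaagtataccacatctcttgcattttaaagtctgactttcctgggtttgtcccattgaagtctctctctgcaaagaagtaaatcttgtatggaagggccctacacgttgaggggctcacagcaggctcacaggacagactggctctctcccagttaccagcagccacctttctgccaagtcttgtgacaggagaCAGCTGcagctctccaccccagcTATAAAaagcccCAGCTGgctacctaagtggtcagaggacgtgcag
Counted from the 5′ end of each window, Cox8b held 2 E-boxes, at bases 232 to 237 and 267 to 272, with a TATA box at 255 to 260 between them. Dio2 held 1 cAMP response element at bases 156 to 163 and a TATA box at 221 to 226. None of the motifs was found in the Cox7a1 window. Of 32851 promoters of the same length, 16.3% held the E-box, 1.79% the cAMP response element, 13.6% the TATA box, 0.904% the EBF motif and 0.0396% the direct repeat. Among the other 5 windows, that of Ucp2 held 1 E-box and no other motif was found. The RefSeq start of Dio2 lies upstream of the start of the GENCODE M21 gene model, at base 90738438. A match is a description of letters, not of binding.

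Cox8b lies on chromosome 7 from 140898945 to 140900446 and shares no exon base with another gene. Its level was 5.08, 6.48 and 24.6 FPKM in Rb1 replicates 1, 2 and 3, against 9.59, 36.4 and 6.61 FPKM in CTR replicates 1, 2 and 3. Each group had 1 high library, Rb1 replicate 3 and CTR replicate 2, and the groups overlapped. For Cox8b the log2 fold change was -0.47 with an SE of 0.83 (edgeR adjusted p = 0.878), and 0.67 without CTR replicate 2 (adjusted p = 0.872). Cox7a1 (chromosome 7 from 30184144 to 30186078) had the same 2 high libraries, with 1.47, 0.917 and 3.35 FPKM in Rb1 replicates 1, 2 and 3, against 1.63, 8.92 and 1.47 FPKM in CTR replicates 1, 2 and 3. Its log2 fold change was -1.0 with an SE of 0.82 (edgeR adjusted p = 0.703), and 0.39 without CTR replicate 2 (adjusted p = 0.925).

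The 2 high libraries differed in their share of muscle transcripts, 0.0120% in Rb1 replicate 3 and 3.61% in CTR replicate 2. Cox7a1 was 5.75 times and Cox8b 4.49 times as high in CTR replicate 2 as in the mean of the other controls, where Cox6a2, another muscle-type subunit gene, was 21.8 times, Ckm, the muscle creatine kinase gene, 99.8 times and Myh4, a fast myosin gene, 160.1 times as high. The muscle markers were uneven there: the myosin genes Myh1 and Myh2 were only 2.37 and 0.652 times the mean of the other controls. In Rb1 replicate 3 Cox7a1 was 2.81 times and Cox8b 4.26 times the mean of the other Rb1 libraries. Ckm was 0.535 times and Myh4 1.06 times that mean there. Cox6a2 was 0.233 times that mean, on only 16, 4 and 3 counts in Rb1 replicates 1, 2 and 3. Of the 21 muscle markers with a ratio there, 6 were above the mean of the other Rb1 libraries, among them Acta1, the skeletal actin gene, at 2.37 times with 1147 counts, and 15 were below it, with a median ratio of 0.551. Cidea, which encodes a lipid droplet protein abundant in brown fat, was also highest in Rb1 replicate 3, at 14.5 FPKM there and 7.99 and 7.85 FPKM in Rb1 replicates 1 and 2, against 4.54, 12.7 and 4.47 FPKM in CTR replicates 1, 2 and 3. Of the 12 effector genes, 8 were above the mean of the other Rb1 libraries in Rb1 replicate 3, Plin5 with 1.95 times and Cidea with 1.84 times the most. The other 4 were below it, Elovl3 (0.144 times, on 2 counts), Fabp3 (0.419), Pdk4 (0.663) and Acsl5 (0.889). The median ratio of the 12 was 1.09, and the share of all tested genes above that mean was not counted. Without CTR replicate 2 the Cidea groups did not overlap (log2 fold change 1.23, edgeR unadjusted p = 0.0111, adjusted p = 0.442), and with all libraries the log2 fold change was 0.53 (adjusted p = 0.744). Ucp1 was 0.506 times the mean of the other Rb1 libraries in Rb1 replicate 3. The part of muscle content in the CTR replicate 2 values was not tested. Nor was the cause of the Rb1 replicate 3 values, which come from a single library. Cidea, Cox6a2, Myh1, Myh2 and the ratios for Rb1 replicate 3 were singled out after their values were seen.

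The balance of isoforms followed the same 2 libraries. Cox7a1 amounted to 4.25%, 3.86% and 9.23% of Cox7a2, per length, in Rb1 replicates 1, 2 and 3, against 4.69%, 29.9% and 4.87% in CTR replicates 1, 2 and 3. The group difference was -7.36 percentage points (exact two-sided permutation p = 0.5, with 0.1 the smallest that 3 against 3 allow) and 0.999 percentage points without CTR replicate 2 (exact permutation p = 1). Cox8b amounted to 1.65%, 2.34% and 6.56% of Cox8a in Rb1, against 2.58%, 12.6% and 2.06% in CTR, a difference of -2.22 percentage points (exact permutation p = 0.6) that was 1.20 without CTR replicate 2 (exact permutation p = 1). The general forms overlapped between groups, with Cox7a2 at 23.8 to 36.3 FPKM in Rb1 and 29.9 to 34.7 FPKM in CTR, and Cox8a at 277 to 375 FPKM in Rb1 and 290 to 371 FPKM in CTR.

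**Figure D4:**
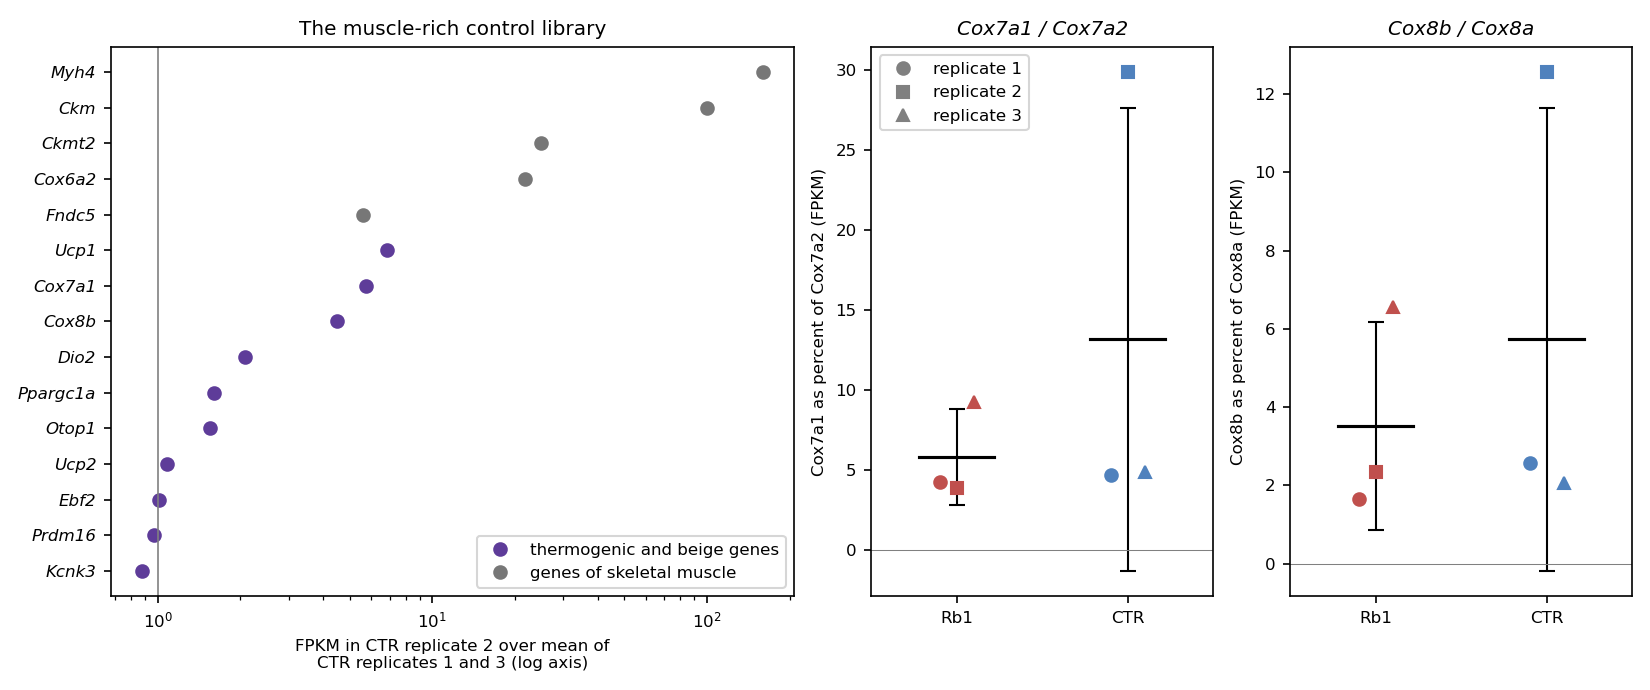
Left, FPKM in CTR replicate 2 over the mean of CTR replicates 1 and 3 (log axis) for the 10 genes and for 5 genes of skeletal muscle; middle and right, Cox7a1 as percent of Cox7a2 and Cox8b as percent of Cox8a per library, with lines for means and bars for 1 SD (n = 3 each). Cox7a1, Cox8b and Ucp1 are raised 4.49 to 6.83 times in CTR replicate 2, and Ucp1 had no read in CTR replicate 3. Of the 5 muscle genes, Fndc5 lies within that range at 5.58 times, and Ckm is at 99.8 times. Rb1 replicate 3 is the second highest library in both isoform panels.

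Dio2 was the least abundant of the 10, with 15, 8 and 27 counts in Rb1 replicates 1, 2 and 3, against 21, 50 and 19 counts in CTR replicates 1, 2 and 3. In FPKM these were 0.128, 0.0891 and 0.190 in Rb1, against 0.189, 0.366 and 0.162 in CTR, and the groups overlapped. For Dio2 the log2 fold change was -0.76 with an SE of 0.46 (edgeR adjusted p = 0.594) and -0.29 without CTR replicate 2 (adjusted p = 0.925). The other deiodinase genes, Dio1 and Dio3, had at most 2 counts in any library. Thra and Thrb, which encode the thyroid hormone receptors, were present at 18.7 to 27.2 FPKM (Thra) and 2.30 to 4.82 FPKM (Thrb) in Rb1, and at 18.9 to 19.7 FPKM (Thra) and 2.33 to 3.69 FPKM (Thrb) in CTR.

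Otop1 (chromosome 5, bases 38275972 to 38304217, plus strand) encodes a proton channel that is induced in brown and beige fat. Its level was 0.520, 0.500 and 1.25 FPKM in Rb1 replicates 1, 2 and 3, against 2.32, 2.39 and 0.755 FPKM in CTR replicates 1, 2 and 3. The groups overlapped through Rb1 replicate 3, the highest of its group, and CTR replicate 3, the lowest of its own. The log2 fold change was -1.19 with an SE of 0.53 (edgeR, unadjusted p = 0.0595, adjusted p = 0.457) and -0.93 without CTR replicate 2 (adjusted p = 0.749). It stayed negative without each library in turn, between -1.80 without Rb1 replicate 3 and -0.93, and DESeq2 called it only without CTR replicate 3 (adjusted p = 0.0249) or Rb1 replicate 3 (adjusted p = 0.0312). The related genes Otop2 and Otop3 had 0 counts in all libraries.

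Kcnk3 (chromosome 5, bases 30588170 to 30625271, plus strand) encodes the potassium channel TASK-1, which sets membrane potential and dampens the adrenergic response in thermogenic adipocytes. Its level was 15.1, 19.4 and 20.5 FPKM in Rb1 replicates 1, 2 and 3, against 20.1, 16.2 and 16.8 FPKM in CTR replicates 1, 2 and 3. The groups covered the same range (log2 fold change 0.10, SE 0.16, edgeR adjusted p = 0.857, and 0.05 with an adjusted p of 0.973 without CTR replicate 2), and CTR replicate 2 was 0.874 times the mean of the other controls. Kcnk3 was the only 1 of the 10 with its lowest control level there. The 10 smooth muscle and pericyte markers summed to 467, 423 and 553 FPKM in Rb1 replicates 1, 2 and 3, against 432, 554 and 459 FPKM in CTR replicates 1, 2 and 3, so these sums overlapped as well. Of the exon bases of Kcnk3, 5.76% are shared with Gm9899 on the opposite strand, and of those of Dio2, 1.72% with Gm26512.

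**Figure D5:**
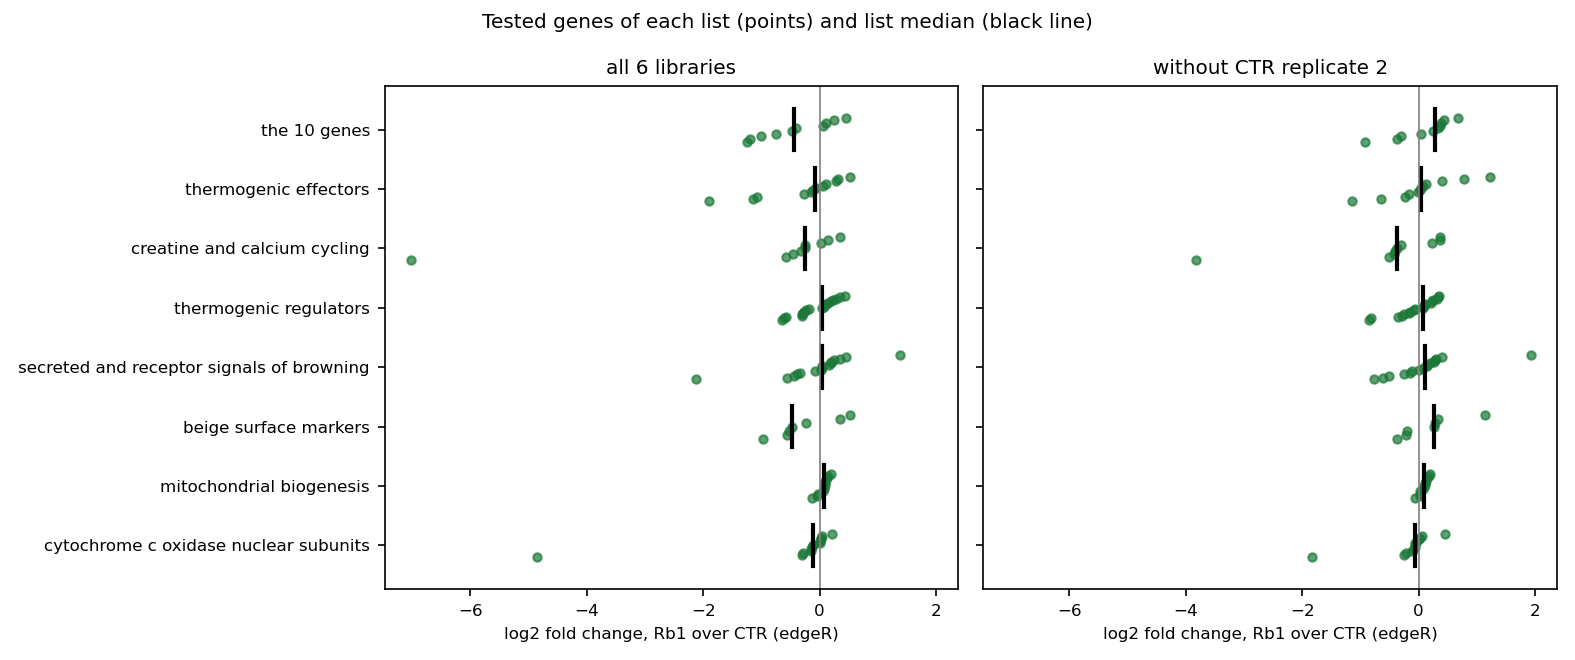
Log2 fold change of Rb1 over CTR from edgeR (horizontal axis) for each tested gene among the 10 genes and 7 wider lists, with all 6 libraries (left) and without CTR replicate 2 (right), with black lines at list medians. The median of the 10 genes is at -0.44 on the left and 0.29 on the right, and the points farthest below 0 are Ckmt2 and Cox6a2.

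The wider thermogenic pathway was described by 8 lists of genes, and 0 of their genes passed in edgeR in either direction, with or without CTR replicate 2. Of the 12 effector genes, such as Cidea, Plin5 and Cpt1b, 5 had positive and 7 negative log2 fold changes (median -0.08, or 0.04 without CTR replicate 2), with none at an unadjusted p under 0.05. Those with the smallest p were Cpt1b, the muscle-type carnitine palmitoyltransferase gene (-1.08, or -0.16 without CTR replicate 2), Fabp3, the heart and muscle fatty acid binding protein gene (-1.89, or -0.65 without it), and Acot2, a mitochondrial thioesterase gene (0.32, or 0.40 without it). Cpt1b and Fabp3 were highest in CTR replicate 2, at 3.58 and 4.997 times the other controls. DESeq2 called none of these 12 with all libraries or without CTR replicate 2.

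Among 9 genes of creatine and calcium cycling, which are UCP1-independent routes of heat production, 6 had negative and 3 positive log2 fold changes (median -0.25, or -0.37 without CTR replicate 2). At an unadjusted p under 0.05 there were 3 lower and 1 higher, where 7.54% of all tested genes were lower and 4.01% higher. All 4 had groups that did not overlap, against 9.74% (lower) and 7.73% (higher) of all tested genes. With CTR replicate 2 left out, 2 were lower and 1 higher at that p, against 8.32% of all tested genes in either direction. Then 5 were lower and 1 higher without overlap, against 25.4% in either direction. Ckb, the creatine kinase of this cycle in mouse thermogenic fat, had 6.70, 5.67 and 5.55 FPKM in Rb1 replicates 1, 2 and 3, against 9.20, 8.77 and 7.26 FPKM in CTR replicates 1, 2 and 3 (log2 fold change -0.45, edgeR adjusted p = 0.229, and -0.41 without CTR replicate 2). Slc6a8, the creatine transporter gene, was at 2.23 to 3.13 FPKM in Rb1 and 3.51 to 4.79 FPKM in CTR (-0.58, adjusted p = 0.332, and -0.51 without CTR replicate 2). Atp2a2, which encodes the calcium pump SERCA2, was at 29.6, 26.6 and 24.97 FPKM in Rb1, against 22.6, 22.4 and 20.6 FPKM in CTR (0.35, edgeR adjusted p = 0.271, DESeq2 adjusted p = 0.0222, and 0.37 without CTR replicate 2). Ckmt2, a mitochondrial creatine kinase gene of muscle, had 4, 0 and 2 counts in Rb1, against 46, 906 and 14 counts in CTR. DESeq2 called 1 gene of this list higher (Atp2a2) and 1 lower (Ckmt2) with all libraries, and none without CTR replicate 2. Slc6a8 was named in addition to the 3 genes with the smallest p.

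Of 21 thermogenic regulators, 19 were tested, 10 with positive and 9 with negative values (median 0.04, or 0.07 without CTR replicate 2). Esrra, the oestrogen-related receptor gene that works with PGC-1α, had 6.33, 6.21 and 6.85 FPKM in Rb1, against 9.10, 8.44 and 7.24 FPKM in CTR (log2 fold change -0.31, edgeR adjusted p = 0.402, and -0.28 without CTR replicate 2). Nfia, a regulator of the brown fat programme, was at 0.29 (adjusted p = 0.402) and Esrrg, a related receptor gene, at -0.64 (adjusted p = 0.475). At an unadjusted p under 0.05 there were 1 higher (Nfia) and 1 lower (Esrra). Zic1, a marker of classical brown fat precursors, had at most 15 counts in any library and was not tested, nor was Esrrb. DESeq2 called no gene of this list.

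Of 17 genes for secreted signals and receptors of browning, 16 were tested, 10 with positive and 6 with negative values (median 0.04, or 0.11 without CTR replicate 2). At an unadjusted p under 0.05 there were 2 higher (Adrb3 and Npr1) and 1 lower (Fndc5). Adrb3, the adrenergic receptor gene through which noradrenaline acts on mouse fat, had 9.84, 32.2 and 19.95 FPKM in Rb1 replicates 1, 2 and 3, against 4.06, 13.3 and 7.22 FPKM in CTR replicates 1, 2 and 3. The groups overlapped through CTR replicate 2 (log2 fold change 1.39, SE 0.56, edgeR adjusted p = 0.424), and did not without it (1.93, edgeR adjusted p = 0.464). DESeq2 called 0 genes of this list with all libraries and, without CTR replicate 2, Adrb3 alone (adjusted p = 0.0108). Npr1, the natriuretic peptide receptor gene, was at 0.34 (edgeR adjusted p = 0.322), and Fndc5, which muscle expresses, at -2.12 (adjusted p = 0.374), or -0.76 without CTR replicate 2, with 5.58 times the level of the other controls in CTR replicate 2. Of the exon bases of Adrb3, 24.9% are shared with Gm45470 on the opposite strand.

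The list named beige surface markers, not all of which encode surface proteins, gave 2 positive and 5 negative values among 7 tested of 8 (median -0.47). Without CTR replicate 2 it gave 4 positive and 3 negative values (median 0.27). Epsti1, the only 1 at an unadjusted p under 0.05, was at -0.55 (edgeR adjusted p = 0.357), Slc36a2, an amino acid transporter gene, at -0.23 (adjusted p = 0.524) and Tbx1, a beige marker in mouse, at -0.98 (adjusted p = 0.669), or 0.28 without CTR replicate 2. DESeq2 called 0 genes of this list and of the 3 that follow, in which 2 genes were at an unadjusted p under 0.05 in edgeR, Cox6a2 lower and Ebf1 higher. The 12 genes of mitochondrial biogenesis lay close to 0, 9 of them positive, with a median of 0.08, or 0.10 without CTR replicate 2. Their smallest p values belonged to Polg (0.20), Twnk (0.14) and Tfb2m (0.13), all with an edgeR adjusted p of at least 0.688. Of the 13 other nuclear genes of cytochrome c oxidase, 6 were positive and 7 negative (median -0.12, or -0.06 without CTR replicate 2). DESeq2 with all libraries gave a p for only 12 of these 13. Cox6a2 was at -4.85 (adjusted p = 0.310), or -1.83 without CTR replicate 2, followed by Cox7c (-0.31) and Cox4i1 (-0.14). Among relatives of the 10 genes, 13 of 18 were tested (median 0.02, or 0.01 without CTR replicate 2), and Ebf1, an adipogenic relative of Ebf2, had the smallest p. Its level was 33.6, 28.2 and 26.5 FPKM in Rb1, against 19.5, 18.6 and 24.5 FPKM in CTR, without overlap (log2 fold change 0.53, edgeR adjusted p = 0.287). Kcnk2 was at -0.34 (adjusted p = 0.607) and Slc25a30 at 0.24 (adjusted p = 0.677). White adipocyte markers, 7 of which were in the table, summed to 1488, 1016 and 1360.0 FPKM in Rb1 replicates 1, 2 and 3, against 1965, 1317 and 1703 FPKM in CTR replicates 1, 2 and 3, with a median log2 fold change of -0.02.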

How the data were processed

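The study measured RNA of white adipose tissue in 6 libraries. Per the submitters' processing notes, tools included CASAVA 1.8 and TopHat2 2.0.6 with mm10 as the build. The counting tool, annotation, strand setting and filters: not given in the sources used here. Per the file headers, the authors deposited raw read counts per Ensembl gene and FPKM. The deposited FPKM equalled the count over a fixed gene length and the column total (13169 genes with at least 10 counts in every library, largest spread 0.00984%), so a library rich in muscle transcripts shows lower FPKM elsewhere. Counts were used for tests and FPKM for levels.

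Counts were fitted with edgeR 4.0.16 in R 4.3.3: TMM, default filter (minimum count 10, minimum total 15), quasi-likelihood test of Rb1 against CTR, Benjamini-Hochberg adjustment over all tested genes, threshold 0.05. DESeq2 1.42.0 was an alternative. SEs came from the F statistic. Single values were tested with exact two-sided permutation tests; log2 levels used FPKM plus 0.1. The edgeR step was tested on simulated counts. No pair of libraries agreed within sampling noise. Symbols, positions and shared exons came from GENCODE M21 on GRCm38, which mm10 denotes; the symbol Wdnm1 of the white adipocyte list found no match. Cpt1b shares 81.4% of its exon bases with Gm44502 on the same strand. Mb, Fabp3, Ckm, Myh1, Myh2, Cox6a2, Cox4i1, Kcnk2, Esrra, Nfia, Npr1, Ckmt2, Atp2a2, Thra, Mecom, Polg and Twnk also share exon bases with another gene. So do the summed markers Tnnc2 (74%), Itgam (68.7%, same strand) and Tagln (67.9%), among others. Their values are uncertain to that extent, for genes on opposite strands because the strand setting is unknown. The 10 genes and the lists were chosen with earlier results of these data known. The genes named from each list were up to 3 with the smallest p; Mecom, Ucp3, Thra, Thrb, Slc6a8 and Cidea were named besides, after their values were seen. Alternatives were other size factors, no filter, DESeq2, a replicate block, muscle genes removed, and each library left out.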

Additional observations from a re-analysis of the deposited data

How the results depend on the processing

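The count of genes called was 1 in edgeR under relative log expression size factors, no filter, removal of muscle markers and a replicate block, and 374 in DESeq2. Of the 10 genes, 0 were called in those edgeR fits and 2 in DESeq2. The replicate block kept the median at -0.44 and gave -0.47 for Ucp1 and -0.61 for Cox7a1. The labels used here state no link between same-numbered samples beyond the number. Correlations of their deviations from the group means were 0.14, -0.11 and 0.02, which with 3 libraries a group cannot show or exclude a pairing. With 1 library left out, edgeR called 1 to 4 genes and DESeq2 173 to 735; of the 10, edgeR called 0 and DESeq2 0 to 3, and 2 to 5 were without overlap (5 without Rb1 replicate 3). The median then lay between -0.72 and 0.29, and above 0 only without CTR replicate 2. DESeq2 fits without a library other than CTR replicate 2 were chosen after seeing the data. Over both tools, log2 fold changes that changed sign with a library left out ranged from -2.90 to 0.37 for Ucp1, -1.74 to 0.39 for Cox7a1, -1.58 to 0.67 for Cox8b, -0.11 to 0.33 for Ppargc1a, -0.0046 to 0.49 for Ebf2 and -0.0030 to 0.26 for Kcnk3. Differences in mean log2(FPKM + 0.1) ranged from -0.52 to -0.41 for Ucp2 and 0.37 to 0.43 for Prdm16; with a pseudocount of 1 the Prdm16 difference was 0.29, against 0.39. The isoform differences ranged from -11.6 to 0.999 percentage points for Cox7a1 and from -4.05 to 1.20 for Cox8b. The cause was not tested. Low counts of Dio2 and Ucp1 limit what 3 libraries a group can show.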
